A study of Cucumis sativus with 4 samples.

Results

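A group of 87 genes, abundant in the axillary buds of wild-type cucumber (Cucumis sativus), was chosen because its values were lower in buds of plants that carry an RNA interference construct against CsBRC1. The 87 genes are those of the 17770 in the deposited table that met 3 conditions: a mean normalised value of at least 100 over the 2 wild-type libraries, a smaller wild-type value at least 2 times the larger CsBRC1-RNAi value, and a value of 0.5 or more in at least 1 CsBRC1-RNAi library. Every library of both genotypes entered that choice, so the lower values described here follow from how the genes were picked, and no test is drawn from them.

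The CsBRC1-RNAi plants carry the CsBRC1-RNAi construct, built on 585 bp of that gene's coding region and introduced by Agrobacterium strain GV3101 into the inbred line R1461. The controls are labelled wild type. An empty-vector (PFGC-1008) transformation control is also described in the protocols, without a statement of which libraries used it. Each genotype had 2 libraries of lateral buds, all from the same node of plants 2 months old, grown in a growth chamber and then a greenhouse. Whether each library is its own plant, a pool or an independent transgenic line is not in the labels, so any p-value reflects how far the 2 libraries of a genotype differ, and that spread may be technical.

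BRANCHED1 genes such as CsBRC1 encode TCP transcription factors that act inside axillary buds to hold back their outgrowth, and shade strengthens that arrest in many flowering plants. In Arabidopsis, BRC1 switches on homeodomain-leucine zipper genes that raise abscisic acid in the bud. PIN proteins are the efflux carriers that move auxin out of cells, and export of auxin from a bud into the stem goes together with its growth. The title of the series places CsPIN1b and CsPIN3 under repression by CsBRC1.

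The deposited values are counts per library size (CPM) scaled by a further factor for each library. Recovered reads ran from 26912976 to 32385236 per library, and a single read was worth between 0.028 and 0.0392. Values are not divided by gene length, so a higher value in one gene than in another does not mean more transcripts. None of the 17770 identifiers matched the 23999 genes of the RefSeq cucumber table, so the 87 genes are given by identifier, and no name, role or sequence is attached to them. The levels of CsBRC1 and of bud markers were not analysed here, so the genotype and tissue labels were not checked against them. The 4 libraries did not stand equally far apart. Of 17726 genes tested, 674 (3.8%) differed at least 2-fold between the CsBRC1-RNAi libraries and 1305 (7.36%) between the wild-type libraries. Wild type 1 differed by that much from CsBRC1-RNAi 1 and 2 in 2705 and 2245 genes, and wild type 2 in 4497 and 4239. These counts were taken with 1 added to each value, which narrows the ratios of low values.

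In each CsBRC1-RNAi library the 87 genes together made up a fraction of their share in wild type. They held 0.456% and 0.540% of all normalised signal in CsBRC1-RNAi 1 and 2, against 2.15% and 3.48% in wild type 1 and 2. Their summed values were 5176 and 5506 in CsBRC1-RNAi 1 and 2, against 19459.6 and 33210.7 in wild type 1 and 2. Without the gene of highest wild-type mean, Csa6G518000, the sums were 5019 and 5381 in the CsBRC1-RNAi libraries and 18780.2 and 28489.6 in the wild-type libraries. In bulk samples such as these, fewer cells of a type and less RNA per cell cannot be told apart.

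The genes were still well detected in the CsBRC1-RNAi buds. Their median value was 42.0 in CsBRC1-RNAi 1 and 44.3 in CsBRC1-RNAi 2, against 143 in wild type 1 and 225 in wild type 2. The median over all 17770 genes of the table was close to 23.2 or 23.3 in every library. The lowest values were 4.59 and 10.1 in the CsBRC1-RNAi libraries, and 48.6 and 103 in the wild-type libraries. In CsBRC1-RNAi 1 and 2, 13 and 16 of the 87 genes still reached 100, against 67 in wild type 1 and all 87 in wild type 2. Removing the condition on a CsBRC1-RNAi value of 0.5 added no gene, so none of the genes that met the other conditions was under that value in both CsBRC1-RNAi libraries.

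**Figure D1:**
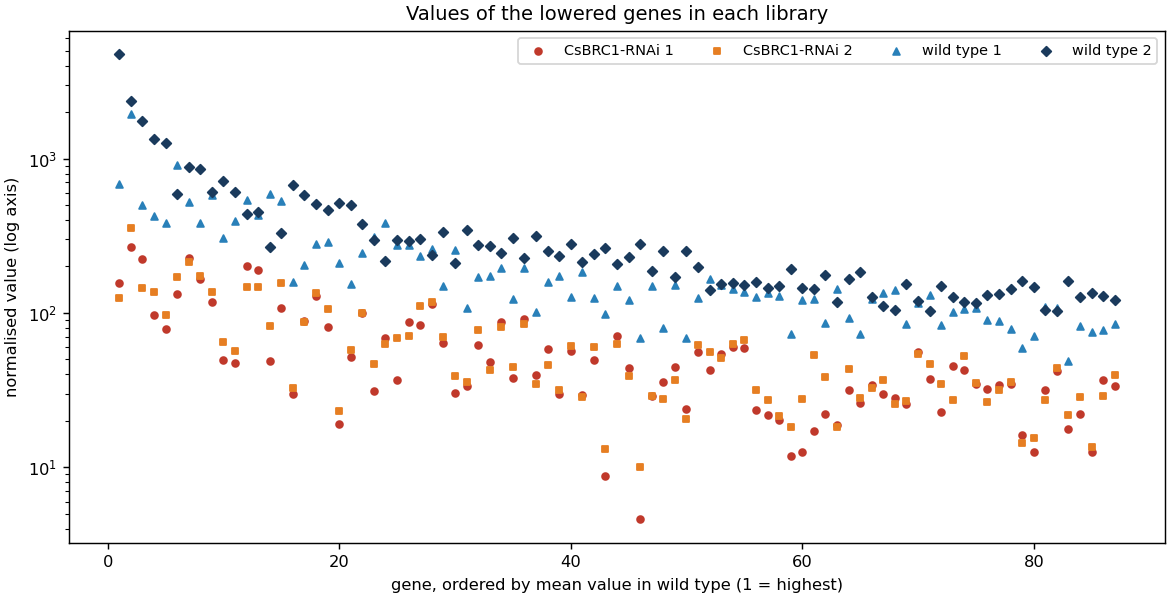
Normalised value (log axis) of each of the 87 lowered genes in the 4 libraries, with genes ordered along the horizontal axis by their mean in wild type. Circles and squares are CsBRC1-RNAi 1 and 2, triangles and diamonds are wild type 1 and 2. The CsBRC1-RNAi points lie close together below the wild-type points, and wild type 2 is above wild type 1 in 72 of the 87 genes.

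The size of the difference depended more on which wild-type library was used than on which CsBRC1-RNAi library. Set against wild type 1, the genes were lower by a median of 3.3-fold in CsBRC1-RNAi 1 (quartiles 2.49 and 5.51) and 3.13-fold in CsBRC1-RNAi 2 (quartiles 2.39 and 4.45). Against wild type 2 the medians were 5.23-fold in CsBRC1-RNAi 1 (quartiles 3.55 and 8.04) and 4.58-fold in CsBRC1-RNAi 2 (quartiles 3.38 and 7.08). Over all genes tested, with 1 added to each value, the same 4 ratios had medians between 0.995 and 1.01. A difference of 4-fold or more was seen against wild type 1 in 32 and 30 genes for CsBRC1-RNAi 1 and 2, and against wild type 2 in 55 genes for each. At 8-fold or more the counts were 8 and 1 against wild type 1, and 23 and 19 against wild type 2.

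By the smaller wild-type value over the larger CsBRC1-RNAi value, the most cautious reading of 4 libraries, 48 of the 87 genes lay between 2- and 3-fold, 17 between 3- and 4-fold, 15 between 4- and 6-fold and 7 at 6-fold or more. The median was 2.79-fold and the highest 9.08-fold. The ratio of the genotype means had a median of 4.24-fold and ran from 2.14- to 23.9-fold.

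Csa6G518000 had the highest wild-type mean and the least even wild-type values. It had 157 and 125 in CsBRC1-RNAi 1 and 2 (141 ± 22.7, SD, n = 2), against 679 and 4721 in wild type 1 and 2 (2700.2 ± 2858). It was the gene with the fourth-highest value of the whole table in wild type 2 (rank 4) and had rank 78 in wild type 1. All of its CsBRC1-RNAi values were below both wild-type values, as the conditions require. The wild-type libraries were 6.95-fold apart, the widest gap among the 87 genes. Its CsBRC1-RNAi mean was 4.82-fold below wild type 1 and 33.5-fold below wild type 2.

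Csa3G145780 was high in both wild-type libraries. Its values were 266 and 356 in CsBRC1-RNAi 1 and 2 (311 ± 63.5, SD, n = 2), against 1955 and 2352 in wild type 1 and 2 (2153 ± 280.4). It ranked 10 in wild type 1 and 12 in wild type 2, and every wild-type value was at least 5.49 times every CsBRC1-RNAi value. Among the 5 genes with the highest wild-type mean it was the only one whose wild-type libraries were within 1.5-fold of each other.

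The other 3 of those 5 genes were, like Csa6G518000, several times higher in wild type 2. Csa1G023070 had 223 and 144 in CsBRC1-RNAi 1 and 2, against 498 and 1750.3 in wild type 1 and 2. Csa2G023940 had 96.8 and 137 in CsBRC1-RNAi 1 and 2, against 427 and 1346 in wild type 1 and 2. Csa2G024440 had 78.9 and 96.6 in CsBRC1-RNAi 1 and 2, against 383 and 1255 in wild type 1 and 2. In these 3 genes wild type 2 was 3.15 to 3.52 times wild type 1. Wild type 1 was above both CsBRC1-RNAi libraries, as the conditions require.

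The 5 genes with the largest cautious ratio had wild-type means of 175 to 498. Csa1G278500 had 19.1 and 23.1 in CsBRC1-RNAi 1 and 2 (21.1 ± 2.79, SD, n = 2), against 209.7 and 517 in wild type 1 and 2 (363 ± 217). Its smaller wild-type value was 9.08 times its larger CsBRC1-RNAi value, the only ratio of 8 or more among the 87. Csa7G391240 had 8.75 and 13.1 in CsBRC1-RNAi 1 and 2, against 98.7 and 264 in wild type 1 and 2, a cautious ratio of 7.53. In each of these genes the CsBRC1-RNAi libraries were at most 1.5-fold apart, while wild type 2 was 2.46 and 2.67 times wild type 1.

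Csa5G197120 had 47.6 and 56.3 in CsBRC1-RNAi 1 and 2 (51.9 ± 6.2, SD, n = 2), against 393 and 603 in wild type 1 and 2 (498 ± 148). Csa6G366560 had 31.4 and 46.6 in CsBRC1-RNAi 1 and 2 (39.0 ± 10.7), against 309 and 297 in wild type 1 and 2 (303 ± 8.95). These genes combined a cautious ratio above 6 (6.98 and 6.37) with wild-type libraries that were 1.53- and 1.04-fold apart. Their CsBRC1-RNAi libraries were 1.18- and 1.48-fold apart. Both genes were named for that ratio, so a difference wider than the spread follows from how they were picked.

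Csa6G501990 had the lowest values of the group in the CsBRC1-RNAi libraries, 4.59 and 10.1 (7.32 ± 3.86, SD, n = 2), against 68.8 and 282 in wild type 1 and 2 (175 ± 150.5). The value of 4.59 rested on 117 reads, the fewest behind any of these values, with an exact 95% Poisson interval from 3.8 to 5.5 that covers counting error only. Both genotypes were uneven in this gene: the CsBRC1-RNAi libraries were 2.19-fold and the wild-type libraries 4.09-fold apart. Its genotype means differed 23.9-fold, the widest such ratio among the 87 genes.

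**Figure D2:**
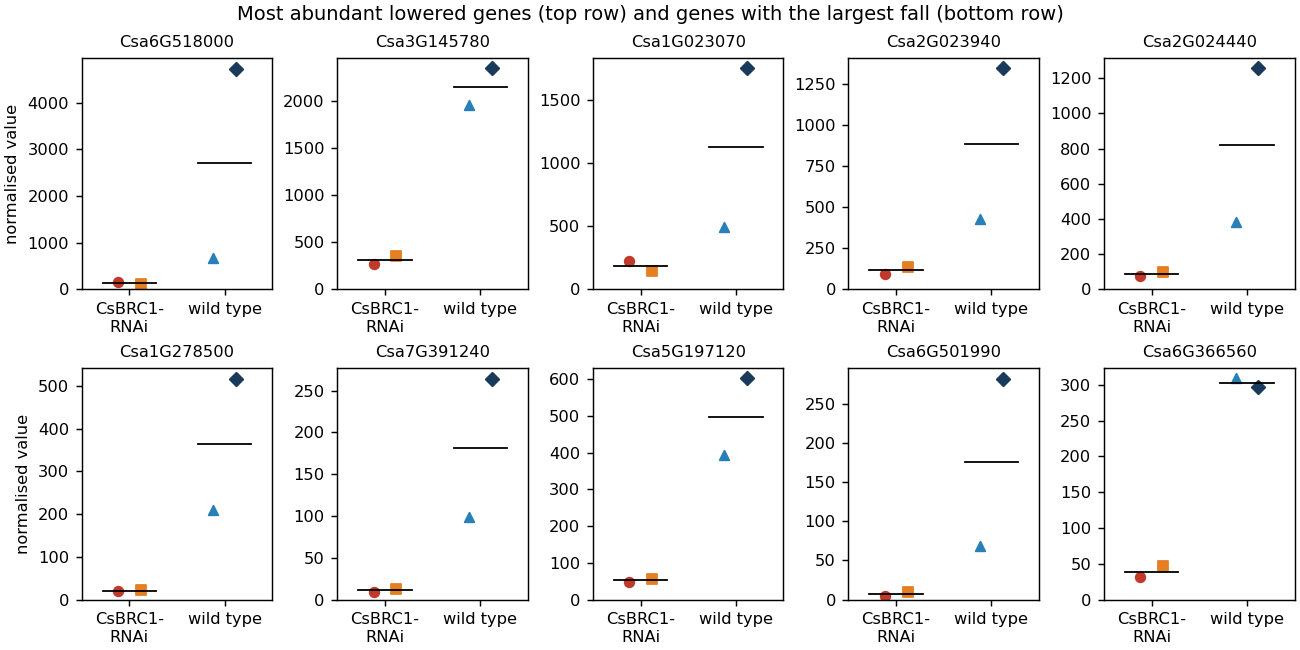
Normalised values (linear axes from 0) of the 5 lowered genes with the highest wild-type mean (top row) and the 5 with the highest ratio of the smaller wild-type to the larger CsBRC1-RNAi value (bottom row). Circles and squares are CsBRC1-RNAi 1 and 2, triangles and diamonds are wild type 1 and 2, and black lines are means of n = 2. The wild-type libraries are close in Csa3G145780 and Csa6G366560 and far apart in Csa6G518000.

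The CsBRC1-RNAi libraries were closer to each other than the wild-type libraries were over the group. Their larger value was a median of 1.18 times their smaller one (quartiles 1.08 and 1.29), against 1.55 for the wild-type libraries (quartiles 1.18 and 2.22). The CsBRC1-RNAi libraries were within 1.2-fold of each other in 44 of the 87 genes, at least 1.5-fold apart in 10 and at least 2-fold apart in 3. They were further apart than the wild-type libraries in 22 genes. Among the 2078 other genes with a wild-type mean of 100 or more, the CsBRC1-RNAi libraries were at least 1.5-fold apart in 203 (9.77%). That share was taken with 1 added to each value and was close to the 11.5% of the 87, taken without it.

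The widest gap between the CsBRC1-RNAi libraries was in Csa3G026660, which had 17.2 and 53.4 in CsBRC1-RNAi 1 and 2, against 123 and 142 in wild type 1 and 2. Csa3G171870 had 12.6 and 27.9 in CsBRC1-RNAi 1 and 2, against 121 and 144 in wild type 1 and 2. In both genes the wild-type libraries were within 1.2-fold of each other, and CsBRC1-RNAi 2 stood 3.11- and 2.21-fold above CsBRC1-RNAi 1. The conditions keep CsBRC1-RNAi 2 under both wild-type libraries.

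Wild type 1 lay between wild type 2 and the CsBRC1-RNAi libraries in most of the genes. It was below wild type 2 in 72 of 87 genes (82.8%) and above it in 15. Among the 2078 other abundant genes wild type 1 was below wild type 2 in 1126 (54.2%). Wild type 2 was at least 2 times wild type 1 in 25 of the 87 (28.7%) and at least 3 times in 12. Among the other abundant genes the first of these shares was 5.25%. The wild-type libraries were within 1.5-fold of each other in 39 of the 87 genes (44.8%) and in 71.8% of the other abundant genes. These shares describe genes chosen on the same libraries and carry no test.

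To place wild type 1, the distance from wild type 2 (0%) to the mean of the CsBRC1-RNAi libraries (100%) was measured on the scale of log2(value + 1), with negative places where wild type 1 was above wild type 2. The median place over the 87 genes was 25.1% (quartiles 4.85% and 39.8%), and the range ran from -55.5% to 57.4%. Wild type 1 was nearer to the CsBRC1-RNAi mean than to wild type 2 in 11 genes. On the linear scale the median place was 42.6% and the count was 36 genes. The condition that wild type 1 be at least 2 times the larger CsBRC1-RNAi value keeps it off the CsBRC1-RNAi level by construction. The choice of genes therefore limits how high this range can reach.

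**Figure D3:**
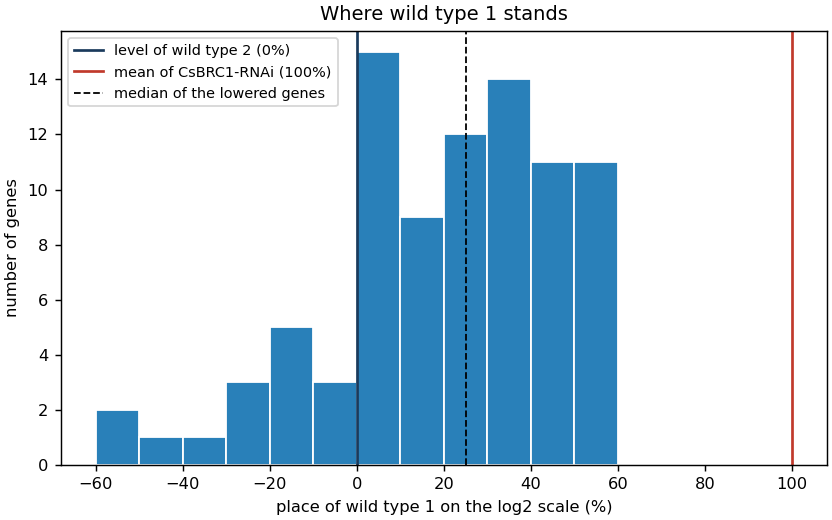
Number of lowered genes (vertical axis) by the place of wild type 1 on the way from wild type 2 (0%, dark line) to the CsBRC1-RNAi mean (100%, red line) on the log2 scale. The median place, drawn as a dashed line, is 25.1%, and no gene lies beyond 57.4%.

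The genes were also described by the order of the wild-type libraries. In the 25 genes with wild type 2 at least 2 times wild type 1, the medians were 35.6 and 35.8 in CsBRC1-RNAi 1 and 2, against 123 and 314 in wild type 1 and 2. The CsBRC1-RNAi mean was a median of 3.09-fold below wild type 1 and 9.98-fold below wild type 2 in these genes. In the 47 genes with wild type 2 from 1 to 2 times wild type 1, the same medians were 2.93-fold and 4.04-fold. In the 15 genes with wild type 1 on top, they were 4.04-fold below wild type 1 and 3.32-fold below wild type 2.

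After Csa6G518000, the widest gaps in favour of wild type 2 were in Csa2G000630 and Csa6G501990, the gene with the lowest CsBRC1-RNAi values. Csa2G000630 had 29.9 and 32.4 in CsBRC1-RNAi 1 and 2 (31.2 ± 1.79, SD, n = 2), against 160 and 678 in wild type 1 and 2 (419 ± 366). The CsBRC1-RNAi libraries agree within 1.08-fold in this gene while wild type 2 was 4.25 times wild type 1.

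The widest gap the other way was in Csa6G006890, with 48.7 and 82.1 in CsBRC1-RNAi 1 and 2 (65.4 ± 23.6, SD, n = 2), against 593 and 268 in wild type 1 and 2 (430.4 ± 230.1). It was the only gene of the 87 in which wild type 1 was at least 2 times wild type 2. Csa3G732470 had 69.1 and 62.7 in CsBRC1-RNAi 1 and 2, against 383 and 216 in wild type 1 and 2. Csa7G322600 had 107 and 155 in CsBRC1-RNAi 1 and 2, against 527 and 329 in wild type 1 and 2. Wild type 1 was 1.77 and 1.6 times wild type 2 in the last pair of genes.

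**Figure D4:**
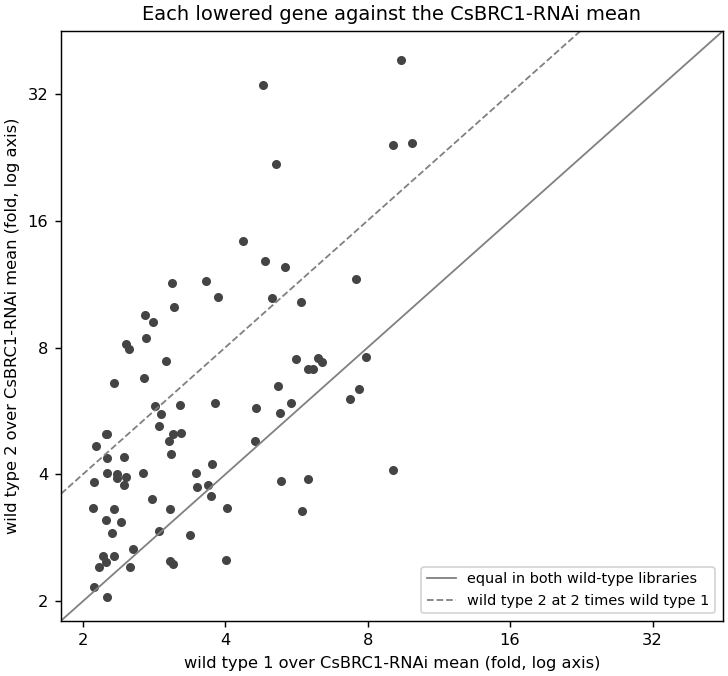
Fold of wild type 1 (horizontal) and wild type 2 (vertical) over the CsBRC1-RNAi mean for each of the 87 lowered genes, on log axes. Points above the solid line have wild type 2 above wild type 1, and the 25 points above the dashed line have wild type 2 at 2 or more times wild type 1.

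The gap between the wild-type libraries was widest among the genes of highest value. Of the 10 genes with a wild-type mean of 500 or more, 6 had wild type 2 at 2 or more times wild type 1, and the median place of wild type 1 was 41.4%. Of the 30 genes with a mean between 200 and 500 the count was 9 and the place 23.3%, and of the 47 genes between 100 and 200 it was 10 and 25.0%. Wild type 2 itself enters the mean that sets these classes. The smaller wild-type value was a median of 3.71, 2.70 and 2.80 times the larger CsBRC1-RNAi value in the same order of classes.

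Across the 87 genes the sizes of the difference ranked partly alike in pairs of libraries that shared none. The log2 ratio of wild type 1 to CsBRC1-RNAi 1 and that of wild type 2 to CsBRC1-RNAi 2 had a Pearson correlation of 0.444 and a Spearman correlation of 0.414. With the CsBRC1-RNAi libraries exchanged, the correlations were 0.537 and 0.481. The log2 ratio of the wild-type libraries and that of the CsBRC1-RNAi libraries had correlations of -0.0589 and -0.00248. These values are across genes, which are not independent replicates and were chosen on these ratios, so they describe the group.

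Genes were also chosen on 3 libraries, with the fourth then read. The wild-type values that each CsBRC1-RNAi library is read against did enter that choice and were picked to be high. That by itself moves the library left out below them. The genes tested as a whole carry no such condition, so these shares carry no test. Chosen without CsBRC1-RNAi 1, 112 genes met the conditions, and CsBRC1-RNAi 1 was below the smaller wild-type value in 111 of them and at least 2 times below in 87 (77.7%). Chosen without CsBRC1-RNAi 2, 120 genes met them, with CsBRC1-RNAi 2 below in 118 and at least 2 times below in 87 (72.5%). In both cases these are the 87 genes of the group, since the library left out completes the conditions. Over all genes tested, CsBRC1-RNAi 1 and 2 were below the smaller wild-type value in 41.4% and 40.9%, and at least 2 times below in 6.34% and 4.63%. The library left out stood a median of 0.148% (CsBRC1-RNAi 1) and 11.6% (CsBRC1-RNAi 2) of the way from the other CsBRC1-RNAi library to the wild-type mean on the log2 scale.

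The wild-type libraries did not stand in for each other in the same way. Chosen without wild type 1, 390 genes met the conditions, and wild type 1 was above the larger CsBRC1-RNAi value in 363 (93.1%) but at least 2 times above it in 94 (24.1%). Chosen without wild type 2, 100 genes met them, and wild type 2 was above in 97 and at least 2 times above in 70 (70.0%). Over all genes tested, wild type 1 and 2 were above the larger CsBRC1-RNAi value in 42.2% and 43.6%, and at least 2 times above in 4.89% and 9.27%. In the 390 genes, wild type 1 stood a median of 52.99% of the way from wild type 2 to the CsBRC1-RNAi mean (quartiles 38.3% and 69.4%). In the 100 genes, wild type 2 stood a median of -2.41% of the way from wild type 1 to that mean (quartiles -34.7% and 35.7%). The 390 genes were picked for a high wild type 2 and the 100 for a high wild type 1, which by itself moves the library left out toward CsBRC1-RNAi in both. All 87 genes are among the 390, and 67 of them are among the 100. These genes pass in the wild-type library left out because it completes the conditions of the group. They make up 87 of the 94 and 67 of the 70, so these shares carry no test.

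**Figure D5:**
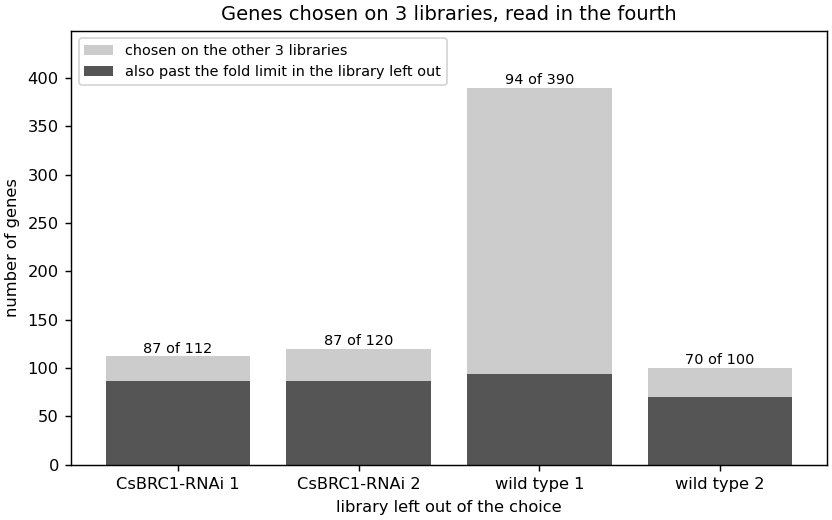
Number of genes (vertical axis) that met the conditions on 3 libraries (light bars) and, of these, the number also past the 2-fold limit in the library left out (dark bars), by the library left out. The dark part is 87 of 112 and 87 of 120 for CsBRC1-RNAi 1 and 2, 94 of 390 for wild type 1 and 70 of 100 for wild type 2. For the CsBRC1-RNAi libraries the dark part is the group of 87 itself, since the library left out completes the conditions. For wild type 1 and 2, genes of the group make up 87 of the 94 and 67 of the 70.

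In the comparison across all genes, limma on log2(value + 1) called 57 of the 87 genes lower in CsBRC1-RNAi at a Benjamini-Hochberg adjusted p under 0.05, where 1.41% of all 17726 genes tested were called lower and 3.61% were called in either direction. The group was chosen on the same contrast, so nothing is read from that count. All 87 genes passed the filter of a value of at least 1 in 2 libraries. The median log2 fold change over them was -1.99, against -0.0056 over all genes tested, and the standard error had a median of 0.29. Of the 25 genes with wild type 2 at least 2 times wild type 1, 6 were called, against 38 of the 47 with a smaller gap and 13 of the 15 with wild type 1 on top. The median standard errors of these classes were 0.49, 0.25 and 0.22. The gap that sets the classes enters the standard error, so these counts follow in part from how the classes were cut. On the recovered reads edgeR called 39 of the 87 (0.942% of all genes lower) and DESeq2 called 87 (9.29% of all genes lower). Without wild type 1 limma called 85 of the 87 (8.74% of all genes lower). Without wild type 2, CsBRC1-RNAi 1 or CsBRC1-RNAi 2 limma called 0 of the 87, with 86, 87 and 87 at an unadjusted p under 0.05, and at most 2 genes lower in the whole table.

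The limits of the choice cut through a continuum. Just inside the 2-fold limit were Csa3G889800, with a ratio of 2.002 and values of 56.2 and 62.0 in CsBRC1-RNAi 1 and 2 against 124 and 197 in wild type 1 and 2, and Csa4G051550, with a ratio of 2.02. Just outside it were Csa2G222060 and Csa7G073570, with ratios of 1.99 and 1.98. Csa2G222060 had 62.7 and 70.1 in CsBRC1-RNAi 1 and 2, against nearly equal values of 139.6 and 139.6 in wild type 1 and 2.

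At the limit of level, Csa4G638400 and Csa2G423560 were just inside, with wild-type means of 103 and 104. Csa3G824990 and Csa1G479110 were just outside, with wild-type means of 97.6 and 97.2. Csa3G824990 had 5.73 and 5.82 in CsBRC1-RNAi 1 and 2, against 21.03 and 174 in wild type 1 and 2. Csa1G479110 had 3.1 and 2.33 in CsBRC1-RNAi 1 and 2, against 22.9 and 172 in wild type 1 and 2. Wild type 2 was 8.29 and 7.51 times wild type 1 in this outside pair, a wider gap than any of the 87 genes had.

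By the digit in their identifiers, read as the chromosome, the genes came from all 7 chromosomes. They numbered 10, 14, 19, 14, 9, 12 and 9 on chromosomes 1 to 7, and none was among the unplaced genes. As a share of the genes with a wild-type mean of 100 or more, they made up between 3.23% (chromosome 1) and 5.51% (chromosome 4), against 4.02% over the 2165 such genes. The digit was read by the naming convention and was not checked against an assembly.

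In the running order of the identifiers, 3 pairs of the 87 genes were next to each other, and no run was longer than 2. Csa4G000810 and Csa4G000820 have numbers 10 apart. Csa4G000810 had 132 and 172 in CsBRC1-RNAi 1 and 2, against 909 and 593 in wild type 1 and 2. Csa4G000820 had 49.9 and 64.4 in CsBRC1-RNAi 1 and 2, against 306 and 711 in wild type 1 and 2. Both were 1.3- and 1.29-fold higher in CsBRC1-RNAi 2 than in 1, but the wild-type libraries stood in opposite order in them, so in these neighbours the gap between the wild-type libraries did not have the same sign.

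Csa2G023940 and Csa2G024440, 2 of the 5 genes of highest wild-type mean, are also next to each other among the genes of the table, with numbers 500 apart. Their wild-type libraries were 3.15- and 3.28-fold apart, both with wild type 2 on top. The pair Csa6G390130 and Csa6G395130 has numbers 5000 apart. Csa6G390130 had 30.0 and 36.6 in CsBRC1-RNAi 1 and 2, against 134 and 111 in wild type 1 and 2. Csa6G395130 had 16.2 and 14.4 in CsBRC1-RNAi 1 and 2, against 59.1 and 161 in wild type 1 and 2. Whether members of a pair share reads through similar sequence was not tested.

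Genes flanking the 87 in that order were taken by position, but they had to pass the filter, and genes of the group were left out. The set of all genes tested keeps the 87. Of 164 such genes that were tested and were not themselves in the group, 91 (55.5%) had a lower fitted value in CsBRC1-RNAi, against 50.3% of all genes tested. Their median log2 fold change was -0.17, against -0.0056 over all genes. Both CsBRC1-RNAi values were below both wild-type values in 68 of them (41.5%), against 33.7% of all genes. By limma, 7 of the 164 (4.27%) were called lower, beside the 1.41% of all genes, and 4 were called higher, where 2.2% of all genes were.

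The same conditions turned round, with the genotypes exchanged, gave 158 genes that were abundant in CsBRC1-RNAi and at least 2-fold lower in wild type. They held 6.29% and 5.45% of all signal in CsBRC1-RNAi 1 and 2, against 2.08% and 1.5% in wild type 1 and 2. Over all genes tested, 590 (3.33%) met the 2-fold condition downward and 896 (5.05%) upward. Wild type 1 lay on the CsBRC1-RNAi side of wild type 2 in 72 of the 87 lowered genes (82.8%) and in 128 of the 158 raised genes (81.0%). The median place of wild type 1 was 25.1% in the lowered and 24.1% in the raised genes on the log2 scale. The CsBRC1-RNAi libraries were at least 1.5-fold apart in 11.5% of the lowered and 21.5% of the raised genes, and the wild-type libraries were at least 2-fold apart in 29.9% of the lowered and 19.0% of the raised genes. These differences between the sets were not tested, since both sets were chosen on the same 4 libraries.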

How the data were processed

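RNA-seq was carried out on lateral buds of 2 CsBRC1-RNAi and 2 wild-type libraries. The submitters' processing notes name HISAT and HTSeq. Versions, build, annotation and strand setting were not given in the sources used here. Per gene and library, the authors deposited a normalised signal value. In every column 100% of the values divided evenly by the smallest value above 0 (within a relative 1e-06), so whole reads were recovered, and edgeR's TMM-scaled CPM of those reads equalled the deposited values within 4.88e-15. No column came from outside the series (0). The fewest reads behind any value of the 87 genes was 117.

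The members and lists were chosen with earlier results of these data known. Calls come from limma 3.58.1 (R 4.3.3) on log2(value + 1), trended prior variance, no block, a filter of a value of 1 or more in 2 or more libraries, with Benjamini-Hochberg adjustment over all genes tested and a threshold of 0.05. Alternatives included edgeR 4.0.16 and DESeq2 1.42.0 on the recovered reads, other pseudocounts, filters, scalings and limits, the replicate number as a block, and leaving out each library. The fits were tested on simulated data. Replicate libraries were distinct: chi-square per degree of freedom was 89.4 in CsBRC1-RNAi and 135 in wild type. Genes named are the 5 of highest wild-type mean, the 5 of highest smaller-wild-type to larger-RNAi ratio, those of most uneven replicates (3 each way in wild type, 2 in CsBRC1-RNAi), neighbouring pairs, and the 2 nearest each limit on either side.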

Additional observations from a re-analysis of the deposited data

How the results depend on the processing

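The count of genes meeting the conditions was 160 and 40 with a wild-type mean of at least 50 and 200, 237 and 22 with a fold of at least 1.5 and 4, 134 after quantile normalization (all 87 among them), 86 after median-of-ratios scaling, and 100 to 390 when a library was left out. The median place of wild type 1 was 42.6% on the linear scale, 25.5% with a pseudocount of 2, 25.4% under median-of-ratios size factors, 24.1% after quantile normalization, 17.3% and 28.7% with wild-type means of at least 50 and 200, and 33.5% and 12.3% with folds of at least 1.5 and 4. The 87 genes called lower by limma numbered 57, and 87 with DESeq2 and 0 to 85 when a library was left out. Over all genes tested the 250 called lower became 166 with a mean of at least 5, 1647 with DESeq2 and 0 to 1549 when a library was left out; such a fit leaves a lone library that is assumed to vary like the other genotype. With the replicate block 84 of the 87 and 589 of all genes were called lower. The replicate numbers share only a number: the differences between replicates 1 and 2 in the 2 genotypes had a correlation of 0.0376 across genes, and no label gives a shared batch. The median log2 fold change of the 87 genes stayed between -1.62 (without wild type 2) and -2.29 (without wild type 1). Their direction is fixed by the choice of genes, so that it did not turn under any setting run is no sign of stability. The cause of these shifts was not tested.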
